A study of Mus musculus with 22 samples.

Results

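Nuclear receptors are transcription factors that a hormone, a lipid or a xenobiotic can switch through a pocket in the protein, although for several members, the orphan receptors, no such ligand is firmly known. The 35 genes described here were taken by a list of symbols from the 55573 genes of a gene count table made from mouse liver RNA. They code for the lipid and bile acid sensors (Ppara, Ppard, Pparg, Nr1h2, Nr1h3, Nr1h5), the xenobiotic sensors (Nr1i2, Nr1i3), the retinoid and thyroid hormone receptors with their partner RXR (Rara, Rarb, Rarg, Rxra, Rxrb, Rxrg, Thra, Thrb), steroid and vitamin D receptors (Nr3c1, Nr3c2, Esr1, Vdr), the oestrogen-related receptors (Esrra, Esrrg), and a group of hepatocyte regulators and orphan receptors (Hnf4a, Hnf4g, Nr5a2, Nr2f1, Nr2f2, Nr2f6, Nr2c1, Nr2c2, Nr6a1, Rora, Nr4a1, Nr4a2, Nr4a3). All 35 were found in the table. Of these, 31 had a mean of at least 10 counts over the 22 libraries and were tested among 14062 genes, and Vdr, Hnf4g, Nr4a2 and Nr4a3 were below that limit.

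The livers came from C57BL/6 mice in 4 groups. Liver-Flcn-/- mice carried Flcn f/f with Albumin-Cre, which acts in hepatocytes, and Cre mice carried the Flcn WT/WT alleles with Albumin-Cre+/-, so that both genotypes had the recombinase. Both were fed chow or a methionine and choline deficient (MCD) diet, a model of steatohepatitis with fibrosis, from 6 weeks of age and for 6 weeks. There were 6 Cre mice on chow, 5 Cre mice on MCD, 5 liver-Flcn-/- mice on chow and 6 liver-Flcn-/- mice on MCD, each mouse giving a single library of poly(A) RNA from whole liver. The libraries held between 13751347 and 21144388 reads counted to genes. Levels are given as CPM, a gene's counts per 1000000 counts of a library size scaled by the TMM method, and differences as log2 fold changes with their standard error (SE) and a p-value adjusted over all genes tested, both from edgeR's quasi-likelihood test. "Called" means an adjusted p under 0.05. Because whole liver was measured, fewer cells of a type and less RNA per cell cannot be told apart.

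Flcn itself, which codes for folliculin, was measured first. Among chow livers the mean was 31.7 CPM in the 6 Cre mice (SD 4.91) against 20.4 CPM in the 5 liver-Flcn-/- mice (SD 2.79), with every library of the latter below every library of the former (log2 fold change −0.63, SE 0.173, edgeR adjusted p = 0.0249). Among MCD livers the means were 29.2 CPM (SD 8.42) and 26.0 CPM (SD 5.13), the groups overlapped, and the difference was not called (edgeR adjusted p = 0.567). On MCD the Flcn level therefore does not check the genotype labels. In the study's model Albumin-Cre removes a single exon of Flcn, so counts over the whole gene need not fall. The study measured hepatic FLCN protein by western blot in mice on standard chow. Plin4, a target gene of PPARG, did not overlap between the labelled genotypes on MCD. It was chosen with results of these data known and is not an independent check of the labels. Alb, the albumin gene that defines hepatocytes, averaged between 56750 and 101100 CPM in the 4 groups.

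Several libraries stood apart. Sex was not labelled, and was read from Xist and Y-linked transcripts: each group held 3 female livers, with 3 male livers among Cre mice on chow, 2 among Cre mice on MCD, 2 among liver-Flcn-/- mice on chow and 3 among liver-Flcn-/- mice on MCD. The 5 male livers on chow were also the 5 libraries with a low share of uniquely mapped reads in the study's library statistics, so that sex and mapping cannot be told apart on chow. Cre MCD 3 had 1901 CPM summed over 8 skeletal muscle genes, with Acta1 at 599 CPM, and 6.28 CPM summed over 5 adipocyte genes. Cre MCD 4 had 96.0 CPM of the same muscle genes, liver-Flcn-/- MCD 3 had 40.1 CPM, Cre MCD 1 had 13.1 CPM, and no other library exceeded 9 CPM. Cre MCD 3 and Cre MCD 4 were the 2 male livers among Cre mice on MCD. Sex and muscle transcripts therefore cannot be told apart in that group, and a fit without both livers holds only female Cre livers on MCD. Several results that turned on these livers are given with and without them, and for others the values of these livers are given.

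Most receptors of this superfamily bind DNA at copies of the hexamer AGGTCA, as pairs with RXR (the PPARs, LXRs, CAR, PXR and the thyroid and retinoic acid receptors), as pairs of the same receptor (HNF4A, COUP-TFs) or as single molecules (the oestrogen-related receptors, NR5A2, RORA), and they then recruit coactivators or corepressors. In hepatocytes HNF4A sets the expression of secreted and metabolic genes, PPARA drives fatty acid oxidation, LXR handles sterols and lipogenesis, and CAR and PXR induce drug metabolism. FLCN holds the transcription factors TFE3 and TFEB in the cytoplasm, and these bind the E-box CACGTG. The 250 bases before the annotated starts of the receptor genes were read from RefSeq promoters (build GRCm38.p6), which held 51 promoters of 32 members and none for Hnf4g, Nr3c1 and Thra. AGGTCA on either strand was in 8 of the 51, which is 15.7%, against 14% of all 32851 promoters and 11.6% of the 13513 promoters of tested genes. Repeats of AGGTCA in the same direction with 1 to 5 bases between them were in 0 of the 51 and in 24 of all 32851 (0.0731%). CACGTG was in 3 of the 51 (5.88%), those of Nr1i3, Rara and Thrb, against 6.02% of all promoters and 8.12% of the promoters of tested genes. The 7 genes with the hexamer were Nr5a2, Nr6a1, Pparg, Rarg, Rxra, Rxrg and Thrb, and of the promoters printed below those of Nr6a1, Pparg and Thrb belong to them.

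The promoters shown are those of the pair of members that were called between genotypes, Esrra and Nr6a1, of the member with the largest rise with MCD, Pparg, and of Thrb, which fell in both genotypes. Each is printed 5′ to 3′ on the gene's strand, ending just before the start, and capitals mark AGGTCA or its reverse complement TGACCT. Esrra had no such match at chr19:6921809-6922058 (minus strand). Nr6a1 had 2 at chr2:38784516-38784765 (minus strand), and its other listed start had none. Pparg had 1 at each of a pair of starts, chr6:115360894-115361143 and chr6:115362099-115362348 (plus strand), the matches beginning at −28 and −9 bases from the start. The other listed start of Pparg had none. Thrb had 1 at chr14:17660710-17660959 (plus strand), beginning at −184, and its other listed start had none. A match is a description of the letters in the window.
Esrra: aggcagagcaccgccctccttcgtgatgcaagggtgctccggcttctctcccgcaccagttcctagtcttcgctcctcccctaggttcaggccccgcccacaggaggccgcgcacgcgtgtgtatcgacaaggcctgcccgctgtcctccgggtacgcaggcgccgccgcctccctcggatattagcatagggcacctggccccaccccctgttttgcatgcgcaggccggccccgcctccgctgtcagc
Nr6a1: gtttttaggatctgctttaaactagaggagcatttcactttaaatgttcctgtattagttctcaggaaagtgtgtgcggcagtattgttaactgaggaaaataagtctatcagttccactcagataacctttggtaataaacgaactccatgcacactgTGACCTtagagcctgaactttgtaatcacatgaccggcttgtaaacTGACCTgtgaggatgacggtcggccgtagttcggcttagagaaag
Pparg, upstream start: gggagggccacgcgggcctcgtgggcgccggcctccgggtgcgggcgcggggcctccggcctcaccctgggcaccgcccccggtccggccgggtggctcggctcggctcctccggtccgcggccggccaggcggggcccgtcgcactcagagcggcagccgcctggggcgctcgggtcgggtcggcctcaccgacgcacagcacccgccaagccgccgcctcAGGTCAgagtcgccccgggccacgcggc
Pparg, next start: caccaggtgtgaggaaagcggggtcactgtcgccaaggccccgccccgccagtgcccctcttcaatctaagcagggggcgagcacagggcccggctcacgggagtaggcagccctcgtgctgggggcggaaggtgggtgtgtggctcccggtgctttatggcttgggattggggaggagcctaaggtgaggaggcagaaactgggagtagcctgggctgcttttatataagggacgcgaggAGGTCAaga
Thrb: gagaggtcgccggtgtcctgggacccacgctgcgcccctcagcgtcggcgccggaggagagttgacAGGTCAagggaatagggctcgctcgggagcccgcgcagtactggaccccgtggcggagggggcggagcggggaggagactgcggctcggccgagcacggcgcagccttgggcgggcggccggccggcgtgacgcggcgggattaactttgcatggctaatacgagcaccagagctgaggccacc

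Levels were compared between receptors as CPM per kilobase of merged exons. In Cre mice on chow Hnf4a had the highest level at 137 ± 17.8 CPM per kilobase (SD, n = 6), followed by Rxra, the obligate partner of many of the others, at 65.1, Nr1i3 (CAR) at 49.0, Nr1h3 (LXR alpha) at 43.9 and the orphan receptor Nr2f6 at 38.5. Nr1i2 (PXR) had 29.3, Ppara 20.2, the glucocorticoid receptor Nr3c1 14.3 and Nr5a2 (LRH-1), a regulator of bile acid synthesis, 13.2 CPM per kilobase. At the other end Esrrg had 0.380, Nr2f1 0.181, Nr4a2 0.136 and Vdr, the vitamin D receptor, 0.0187 CPM per kilobase, the last with at most 7 counts in any library. Among the 34 pairs of neighbours in this order, 30 had overlapping ranges over the 6 livers, and the order within those pairs is not beyond their spread. Hnf4a stood first in each of the 4 groups. Pparg, at 2.50 CPM per kilobase on chow, stood at 6.15 in Cre mice on MCD and 6.92 in liver-Flcn-/- mice on MCD, while Ppard went from 2.19 to 0.715 in Cre mice and from 2.28 to 0.700 in liver-Flcn-/- mice.

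**Figure D1:**
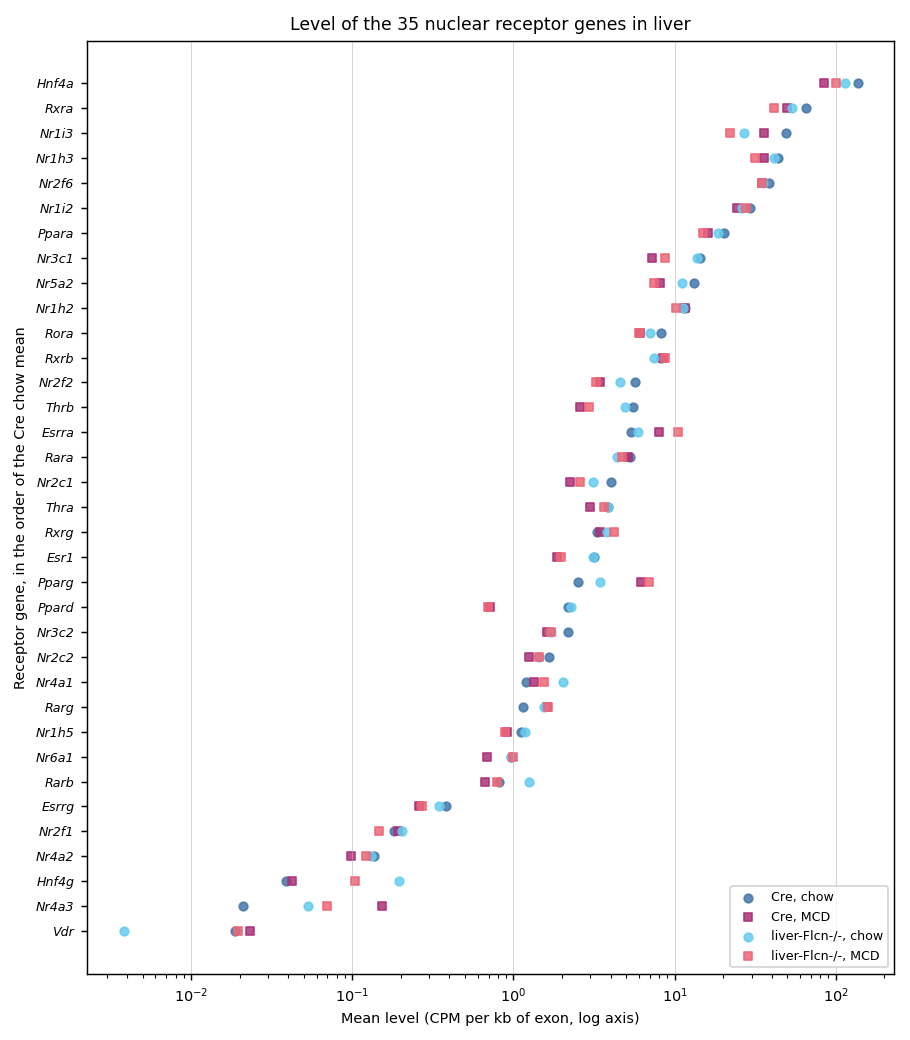
Mean level of each of the 35 receptor genes in the 4 groups, as CPM per kilobase of merged exons on a log axis, ordered by the level in Cre mice on chow. The levels span from 137 (Hnf4a) to 0.0187 (Vdr) in Cre mice on chow.

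The first question was how the MCD diet moved the receptors in Cre mice. Of the 31 members tested, 18 were called (58.1%), against 57.5% of all genes tested, so the share was near the background. The directions were uneven: 3 members rose (29.3% of all genes rose) and 15 fell (28.2% of all genes fell), and the median log2 fold change was −0.36 over the members and 0.01 over all genes tested. The members that rose were Pparg, Esrra and Rarg. The members that fell were Ppard, Thrb, Nr3c1, Nr2c1, Esr1, Nr2f2, Nr5a2, Hnf4a, Nr6a1, Rora, Nr2c2, Rxra, Thra, Nr1h3 and Nr1i2. In liver-Flcn-/- mice 10 members were called (32.3%), against 45.0% of all genes: 2 rose (22.5% of all genes rose) and 8 fell (22.5% fell), with a median of −0.27 over the members and 0.00 over all genes. Pparg and Esrra rose, and Ppard, Thrb, Nr3c1, Rarb, Nr5a2, Nr2f2, Nr1h3 and Rxra fell. Thus 9 members were called the same way in both genotypes, 9 in Cre mice without a call in liver-Flcn-/- mice, 1 (Rarb) in liver-Flcn-/- mice without a call in Cre mice, and 12 in neither (Ppara, Nr1h2, Nr1h5, Nr1i3, Rara, Rxrb, Rxrg, Nr3c2, Esrrg, Nr2f1, Nr2f6 and Nr4a1). The same split over all genes is not given here, and a call in 1 genotype alone is not a difference between the genotypes. With the male livers alone MCD gave 7 calls in the Cre genotype, with 33.3% of all genes called, and 6 calls in liver-Flcn-/- mice, with 20.7% of all genes called.

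**Figure D2:**
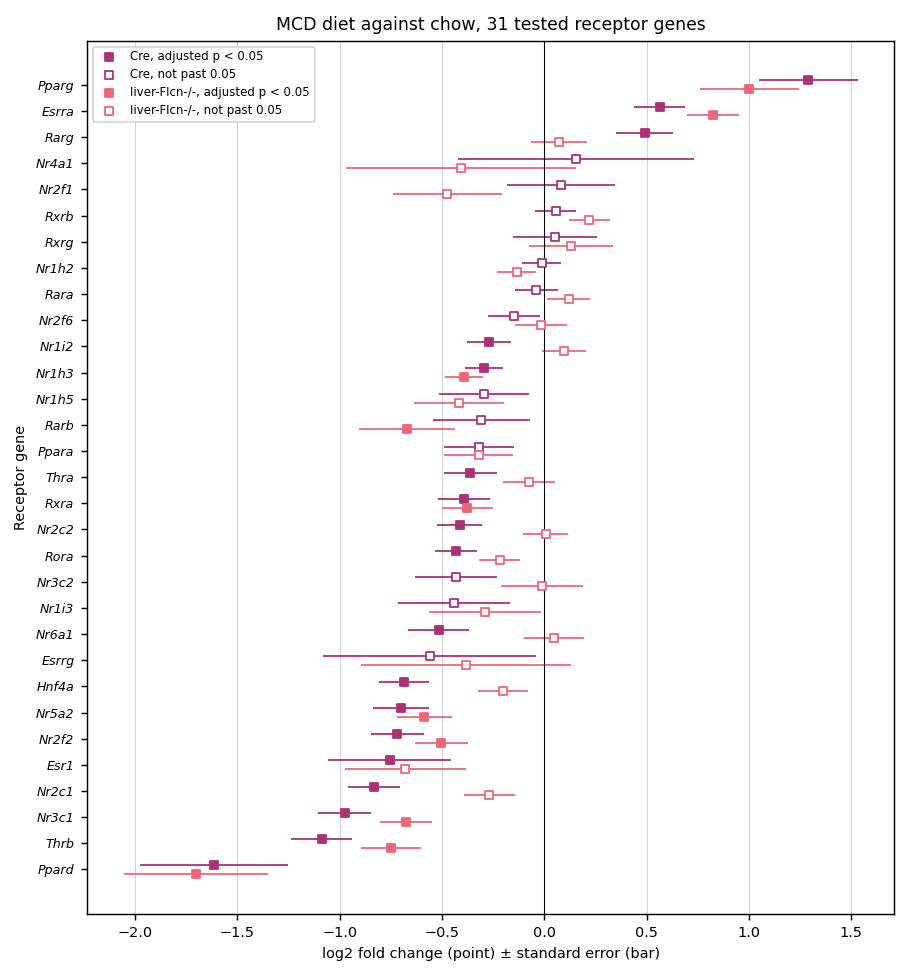
Log2 fold change with MCD against chow for the 31 tested receptors in Cre and liver-Flcn-/- mice, with bars of 1 SE and filled points for an adjusted p under 0.05. Most points lie left of 0, with Pparg (1.29 and 1.00) and Ppard (−1.62 and −1.70) at the ends.

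Of the 3 PPARs, which sense fatty acids and bind DNA with RXR, Pparg rose with MCD, Ppard fell and Ppara was not called. Pparg (chromosome 6, 115360951 to 115490399), the adipogenic and lipid-storing receptor, was low on chow, with 3.95 to 11.1 CPM and a median of 7.40 in the 6 Cre mice. With MCD the 5 Cre livers had 21.2, 18.9, 12.3, 14.4 and 24.1 CPM. Liver-Flcn-/- mice on chow had 7.47, 9.27, 8.87, 14.8 and 10.4 CPM, and on MCD from 14.9 to 23.7 CPM with a median of 21.03. In each genotype every MCD liver was above every chow liver, and the rise was 2.45-fold in Cre mice (log2 fold change 1.29, SE 0.242, edgeR adjusted p = 0.000116) and 2.00-fold in liver-Flcn-/- mice (1.00, SE 0.243, edgeR adjusted p = 0.00198). Ppard (chromosome 17, 28232700 to 28301474), a broadly expressed receptor of the same family, went the other way. Cre mice on chow had 5.38 to 24.3 CPM with a median of 17.8, and on MCD 4.61, 4.83, 6.94, 4.95 and 5.53 CPM. Liver-Flcn-/- mice on chow had 13.2, 10.7, 15.6, 36.9 and 9.16 CPM, and on MCD from 4.34 to 6.43 CPM with a median of 4.98. The chow livers were widely spread, and those on MCD were uniformly low: the groups overlapped in Cre mice through a single chow liver, and not in liver-Flcn-/- mice. The log2 fold changes were −1.62 (SE 0.362, adjusted p = 0.000682) and −1.70 (SE 0.352, adjusted p = 0.000474), both from edgeR. Ppara, the PPAR of fatty acid oxidation, was not called in either genotype (−0.32 in both, adjusted p = 0.115 and 0.129 from edgeR).

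Among the hormone receptors, Thrb (chromosome 14, 17660261 to 18038090), the main thyroid hormone receptor of hepatocytes, fell in both genotypes. Cre mice on chow had 36.0 to 45.0 CPM with a median of 40.6, and on MCD 18.2, 14.3, 30.7, 17.5 and 14.7 CPM. Liver-Flcn-/- mice had 33.8, 40.9, 37.8, 32.8 and 37.5 CPM on chow and 18.6 to 24.7 CPM with a median of 22.4 on MCD. No MCD liver reached the chow range, and the highest MCD value was that of Cre MCD 3, the library with the muscle transcripts. The fall on the log2 scale was −1.09 (SE 0.149, adjusted p = 2.82e-06) in Cre mice and −0.75 (SE 0.145, adjusted p = 0.00026) in liver-Flcn-/- mice, both from edgeR. Nr3c1, the glucocorticoid receptor, had 97.0 to 121 CPM with a median of 109 in Cre mice on chow and 55.0, 35.9, 72.5, 54.1 and 61.4 CPM on MCD. In liver-Flcn-/- mice it had 92.2, 128, 105, 99.6 and 108 CPM on chow and 57.7 to 76.2 CPM with a median of 65.4 on MCD. Again every MCD liver was below every chow liver, with log2 fold changes of −0.975 (SE 0.129, adjusted p = 1.8e-06) and −0.68 (SE 0.126, adjusted p = 0.000171) from edgeR.

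Esr1 (chromosome 10, 4611593 to 5005614), the oestrogen receptor alpha, had 13.5 to 62.9 CPM with a median of 50.6 in Cre mice on chow and 26.2, 21.9, 34.5, 23.4 and 21.9 CPM on MCD. Liver-Flcn-/- mice had 24.6, 51.0, 29.1, 57.2 and 52.2 CPM on chow and 22.1 to 32.3 CPM with a median of 25.1 on MCD. The chow livers fell into a high and a low set that overlapped the MCD livers, and the 5 lowest chow values were those of the 5 male livers. The fall was called in Cre mice (−0.76, SE 0.301, edgeR adjusted p = 0.0362) and not in liver-Flcn-/- mice (−0.68, SE 0.296, edgeR adjusted p = 0.0663), and in the male livers alone the change in Cre mice was 0.13. Rarb (chromosome 14, 16430839 to 16819156), the retinoic acid receptor that retinoic acid itself induces, had 2.98 to 5.40 CPM with a median of 4.50 in Cre mice on chow and 3.46, 2.20, 5.67, 3.01 and 3.07 CPM on MCD. Liver-Flcn-/- mice had 6.07, 5.94, 4.23, 8.49 and 8.30 CPM on chow and 2.63 to 5.20 CPM with a median of 4.25 on MCD. The groups overlapped in both genotypes, and the fall was called in liver-Flcn-/- mice (−0.67, SE 0.233, edgeR adjusted p = 0.0227). Rarg was the only retinoid receptor that rose, in Cre mice (0.49, SE 0.139, edgeR adjusted p = 0.0047), and Rxra fell in both genotypes (−0.39 and −0.38). Rara, Rxrb and Rxrg were not called in either genotype.

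Nr2c1 (TR2; chromosome 10, 94148023 to 94197211), an orphan receptor, had 16.2 to 21.9 CPM with a median of 17.5 in Cre mice on chow and 10.3, 9.05, 13.5, 10.5 and 8.56 CPM on MCD. Liver-Flcn-/- mice had 13.9, 14.7, 16.99, 10.6 and 15.4 CPM on chow and 10.5 to 13.2 CPM with a median of 11.7 on MCD. The groups were apart in Cre mice (−0.83, SE 0.128, edgeR adjusted p = 1.15e-05) and overlapped in liver-Flcn-/- mice, where the change was not called (−0.27, SE 0.126, edgeR adjusted p = 0.0867). Its partner Nr2c2 (TR4) fell by 0.41 in Cre mice (edgeR adjusted p = 0.00308) and was at 0.01 in liver-Flcn-/- mice. Hnf4a, the receptor with the highest level in these livers, averaged 659.9 ± 86.1 CPM on chow and 411 ± 51.1 CPM on MCD in Cre mice, a log2 fold change of −0.685 (edgeR adjusted p = 7.01e-05) with no overlap. In liver-Flcn-/- mice it averaged 554 ± 88.2 and 482 ± 66.1 CPM, the groups overlapped and the change was not called (−0.20, edgeR adjusted p = 0.182). Nr5a2 and Nr2f2 (COUP-TFII) fell whichever the genotype (−0.70 and −0.72 in Cre mice, −0.59 and −0.50 with Flcn deleted). Of the remaining calls, Nr1h3 fell in both genotypes (−0.29 and −0.39), and Rora (−0.43), Thra (−0.36) and Nr1i2 (−0.27) were called in Cre mice alone, without the difference between genotypes passing its own test.

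Markers of liver cell types also moved with the diet. The summed level of 8 hepatocyte genes averaged 137800 CPM in Cre mice on chow and 90710 CPM on MCD, and 113700 and 73020 CPM in liver-Flcn-/- mice, and 7 of the 8 fell in each genotype. The 7 genes of infiltrating macrophages summed to 16.4 and 202 CPM in Cre mice (7 of 7 rose) and to 27.4 and 175 CPM in liver-Flcn-/- mice (4 of 7 rose). Gpnmb, a glycoprotein of lipid-laden macrophages, was the most abundant of them averaged over all libraries. On MCD it held much of these sums, with 47.8 to 262 CPM in Cre livers and 55.2 to 260.3 CPM in liver-Flcn-/- livers, and on chow it was at 0.0791 to 4.08 CPM. Neutrophil genes summed to 6.25 and 32.9 CPM, and to 6.54 and 18.8 CPM, and 10 stellate cell genes to 392 and 618 CPM, and to 431 and 462 CPM. Of the stellate cell genes 5 rose and 1 fell in Cre mice (median 0.49). In liver-Flcn-/- mice 1 rose and 1 fell (median −0.22). The 7 endothelial genes fell in sum from 207 to 162 CPM and from 250 to 190 CPM, with 4 and 5 of them called downward and 1 and 0 upward. The Kupffer cell genes stood at 452 and 433 CPM and at 518 and 376 CPM. The part of these shifts in the receptors' changes was not tested.

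Esrra (ERR alpha; chromosome 19, 6910977 to 6921813), the orphan receptor that works with the coactivator PGC-1 alpha on mitochondrial genes, rose with MCD in both genotypes. Cre mice on chow had 17.04 to 29.7 CPM with a median of 24.7, and on MCD 32.0, 37.8, 42.1, 31.8 and 31.1 CPM. Liver-Flcn-/- mice on chow had 30.04, 19.7, 27.9, 25.3 and 26.3 CPM, and on MCD from 42.9 to 48.2 CPM with a median of 45.9. Every MCD liver was above every chow liver of its genotype, and on MCD every liver-Flcn-/- liver was above every Cre liver. The log2 fold change with MCD was 0.56 (SE 0.125, adjusted p = 0.000627) in Cre mice and 0.82 (SE 0.127, adjusted p = 2.14e-05) in liver-Flcn-/- mice from edgeR. Nr6a1 (GCNF; chromosome 2, 38723370 to 38927688), a repressor known from germ cells and early embryos, had 7.71 to 13.7 CPM with a median of 10.0 in Cre mice on chow and 8.07, 6.25, 7.45, 7.76 and 7.33 CPM on MCD. Liver-Flcn-/- mice had 12.6, 9.45, 7.05, 11.1 and 12.0 CPM on chow and 8.20 to 11.9 CPM with a median of 11.1 on MCD. Its mean was lowest in Cre mice on MCD, whose range overlapped that of the chow livers (−0.515, SE 0.149, edgeR adjusted p = 0.00555), and those of liver-Flcn-/- mice on MCD were at the chow level (0.05).

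**Figure D3:**
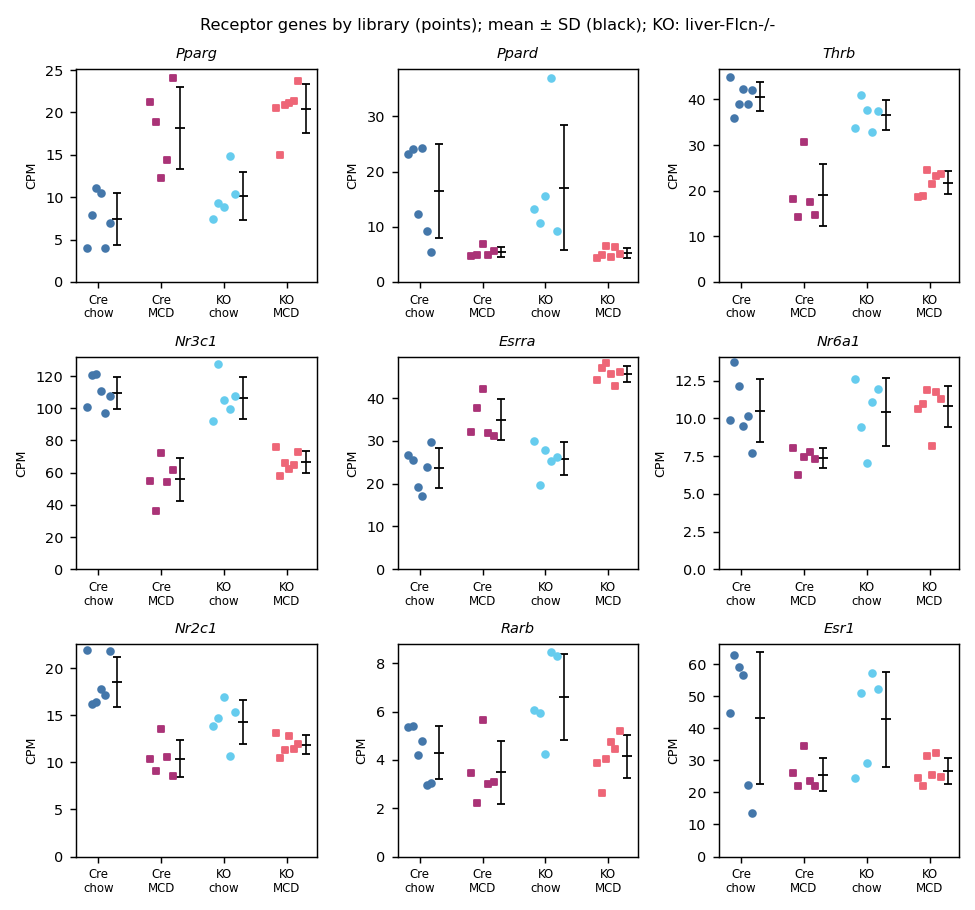
CPM in each of the 22 libraries for the 9 receptors described by library, with the mean and SD of each group. Pparg and Esrra lie higher on MCD and Ppard, Thrb and Nr3c1 lower, and on MCD the liver-Flcn-/- livers lie above all Cre livers for Esrra and Nr6a1.

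The second question was how the genotypes differed on each diet. On chow 0 of the 31 members were called by edgeR, against 8.62% of all genes (5.52% higher and 3.10% lower in liver-Flcn-/- mice). At an unadjusted p under 0.05 there were 8, of which Rarg and Rarb were higher and Nr1i3, Nr2c1, Rara, Nr2f2, Rora and Rxra lower. The share of all genes at that limit is not given here, so this count is not read as a result about the receptors. DESeq2 called 2, Nr1i3 (−0.86, adjusted p = 0.0174) and Rarg (0.44, adjusted p = 0.0384), with 10.8% of all genes called, and limma-voom called 0. Nr1i3, the CAR receptor, had 139 to 316 CPM with a median of 217 in Cre mice, against 114, 176, 62.4, 116 and 126 CPM in liver-Flcn-/- mice. The ranges overlapped with the sexes pooled, and the log2 fold change was −0.86 (SE 0.277, edgeR adjusted p = 0.0564). The overlap came from the liver-Flcn-/- liver with 176 CPM, a female, which was above some male Cre livers. Within each sex every liver-Flcn-/- liver on chow was below every Cre liver. On chow that split is also the split by low mapping. On MCD 2 members were called, both higher in liver-Flcn-/- mice (6.45% of the members), against 16.6% of all genes, 8.06% higher and 8.53% lower. These were Nr6a1 (1.46-fold, log2 fold change 0.55, SE 0.148, edgeR adjusted p = 0.0134) and Esrra (1.31-fold, 0.39, SE 0.125, edgeR adjusted p = 0.0372), both with no overlap between the groups. Nr1i3 was lower there too, without a call (−0.71, SE 0.272, edgeR adjusted p = 0.0807).

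On MCD the set of called members changed when single livers were left out, although the call of Nr6a1 held in each such fit. Without Cre MCD 3, the liver with the muscle transcripts, 5 members were called between genotypes on MCD, with 16.8% of all genes called in the same fit, so the share of members was near the background. Of these Nr6a1 (0.55, adjusted p = 0.0221), Esrra (0.46, adjusted p = 0.0172), Thrb (0.43, adjusted p = 0.00601) and Nr3c1 (0.37, adjusted p = 0.0444) were higher in liver-Flcn-/- mice and Nr1h2 (LXR beta) was lower (−0.25, adjusted p = 0.0447), all from edgeR. Without Cre MCD 3 and Cre MCD 4 the calls were Thrb and Nr6a1, with 11.1% of all genes called. Over the fits that left out each mouse in turn, Nr6a1 was called in 22 of 22 and Esrra in 15 of 22, with a highest adjusted p of 0.0938 for Esrra in these fits. In the male livers alone, where Cre MCD 3 and Cre MCD 4 were the Cre livers on MCD, Esrra was at 0.30 (edgeR adjusted p = 0.329). Marker genes moved with genotype on MCD too: 4 of 7 genes of infiltrating macrophages were lower in liver-Flcn-/- mice and 0 higher (median −0.93), as were 4 of 10 stellate cell genes (median −0.31). Their part in the receptors' values was not tested.

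**Figure D4:**
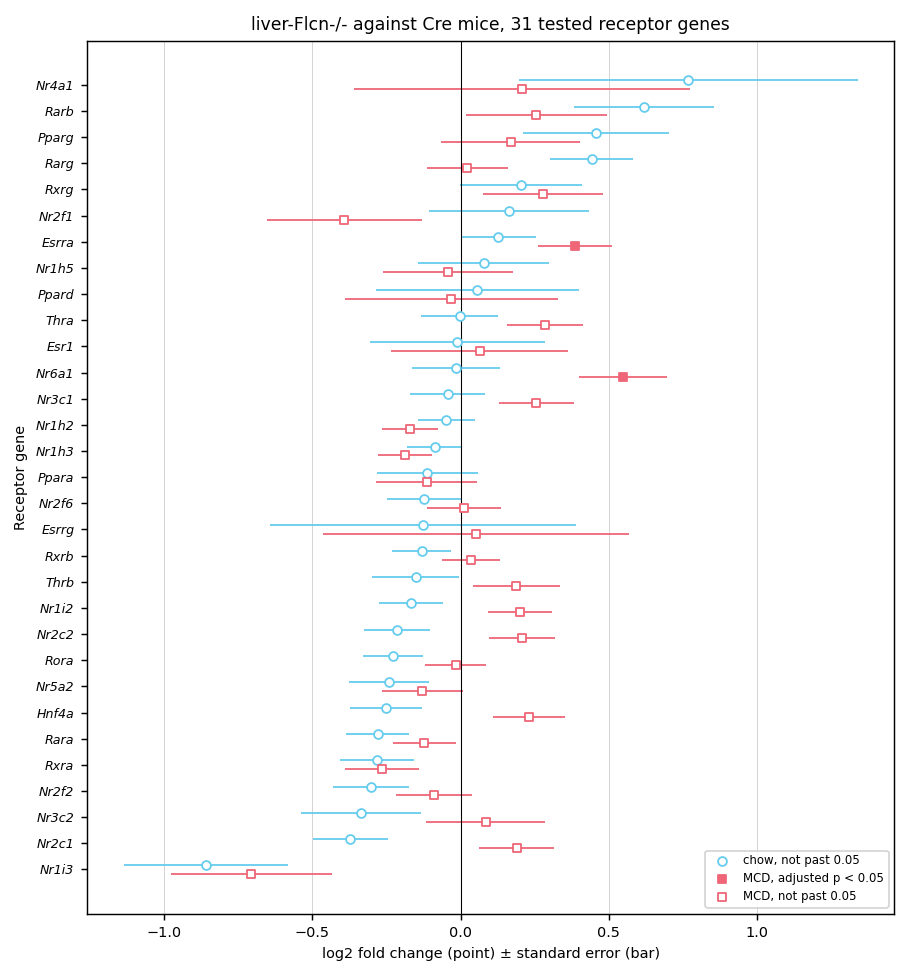
Log2 fold change of liver-Flcn-/- against Cre mice on chow and on MCD for the 31 tested receptors, with bars of 1 SE and filled points for an adjusted p under 0.05. The filled points are Nr6a1 (0.55) and Esrra (0.39) on MCD.

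The third question was whether the response to MCD differed between genotypes, tested as the interaction of genotype and diet. By edgeR 0 of the 31 members were called, against 8.83% of all genes (3.29% upward, 5.54% downward). At an unadjusted p under 0.05 there were 6, a count for which no share of all genes is given here. The nearest were Nr2c1 (0.56, edgeR adjusted p = 0.0522), Hnf4a (0.48, adjusted p = 0.0806), Nr2c2 (0.42, adjusted p = 0.0929) and Nr6a1 (0.56, adjusted p = 0.0944), a positive value meaning a smaller fall or a larger rise in liver-Flcn-/- mice. DESeq2 called 1, Nr2c1 (0.55, adjusted p = 0.0373), with 12.1% of all genes called, and limma-voom called 0. Without Cre MCD 3 the interaction was called for Thrb (0.58, edgeR adjusted p = 0.0117) and Nr2c1 (0.67, edgeR adjusted p = 0.0148), with 10.1% of all genes called. Esrra was at 0.26 (edgeR adjusted p = 0.396) with all livers. That fewer members were called with MCD in liver-Flcn-/- mice is therefore not by itself a difference between the genotypes. For the interaction 6 of the 7 macrophage genes were called downward (median −1.87) and 2 of the 10 stellate cell genes (median −0.70), and their part in these values was not tested.

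The 4 members under the count limit gave few reads. Nr4a3, an immediate early orphan receptor, had 1 to 4 counts in Cre mice on chow, 8 to 32 in Cre mice on MCD, 0 to 9 in liver-Flcn-/- mice on chow and 5 to 17 in liver-Flcn-/- mice on MCD. Every Cre library on MCD was above every Cre library on chow. Fitted with no limit on counts, the log2 fold change in Cre mice was 2.84 (SE 0.52, edgeR adjusted p = 9.71e-05), and the interaction was −2.52 (edgeR adjusted p = 0.0576). Hnf4g had 0 to 19 counts, Nr4a2 2 to 18 and Vdr 0 to 7, and none of these 3 was called in any comparison of that fit. Nr4a1, which was tested, was not called in any of the 5 comparisons.

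Of 14 other receptors of the superfamily 7 were tested, and 3 fell with MCD in Cre mice, where 28.2% of all genes fell. These included Nr1h4 (FXR, the bile acid receptor, −0.73) and Nr0b2 (SHP, its target and a repressor of other receptors, −1.38). With MCD 0 were called in liver-Flcn-/- mice, against 45.0% of all genes. Between genotypes 0 were called, against 8.62% of all genes on chow and 16.6% on MCD. For the interaction 0 were called, against 8.83%. Of 11 coactivators tested, 3 upward and 3 downward calls with MCD were made in Cre mice, where 29.3% of all genes rose and 28.2% fell, against 4 upward and 3 downward calls in liver-Flcn-/- mice, where 22.5% of all genes went each way. Ppargc1a, which codes for PGC-1 alpha, had 10.5 to 18.5 CPM in Cre mice on chow and 17.2, 13.4, 31.3, 16.1 and 17.7 CPM on MCD, and in liver-Flcn-/- mice 20.9, 16.6, 19.8, 20.1 and 21.8 CPM on chow and 30.4 to 53.1 CPM on MCD. Of the Cre livers on MCD only Cre MCD 3 reached the range of the liver-Flcn-/- livers on MCD, and the difference on MCD was 1.10 (SE 0.207, edgeR adjusted p = 0.000961). With MCD it rose in both genotypes (0.555 and 1.05), as did Prmt1, an arginine methyltransferase (0.80 and 0.75), and Ppargc1b (0.68 and 0.94). The rise of Ppargc1a in Cre mice rested largely on Cre MCD 3. The other Cre livers on MCD had 13.4 to 17.7 CPM of it, within the chow range of 10.5 to 18.5 CPM. Ncoa3 (−0.65 and −0.56) fell in both. Among 9 corepressors Nrip1 was called upward in both genotypes (0.40 and 0.46), in Cre mice in 8 of 22 fits with a mouse left out (0.23, edgeR adjusted p = 0.22 without Cre MCD 5), and Sirt1 fell in Cre mice (−0.59), and 0 were called in the other comparisons.

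Genes known as targets of the receptors were counted by list, beside the shares of all genes called with MCD, 57.5% in Cre mice (29.3% up, 28.2% down) and 45.0% in liver-Flcn-/- mice (22.5% each way). Between genotypes the shares of all genes were 5.52% higher and 3.10% lower on chow and 8.06% higher and 8.53% lower on MCD, and for the interaction 3.29% up and 5.54% down. The calls in Cre mice came near that share for the PPARA (12 of 21), LXR (7 of 12) and CAR and PXR lists (10 of 17). The 8 ERR targets code for mitochondrial proteins. With MCD 3 rose and 1 fell in Cre mice (median 0.08), and 7 rose in liver-Flcn-/- mice (median 0.58). Between genotypes 0 were called on chow, and on MCD 4 were higher in liver-Flcn-/- mice and 0 lower (median 0.38). Atp5b, a subunit of ATP synthase, had 1364, 1678, 1364, 1348 and 1410 CPM in Cre mice on MCD and 1764 to 2109 CPM in liver-Flcn-/- mice, with no overlap (0.45, SE 0.0763, edgeR adjusted p = 0.000407). Ndufs1, of complex I, was higher by 0.525 (SE 0.102, edgeR adjusted p = 0.0012) and Cycs, cytochrome c, by 0.43 (SE 0.127, edgeR adjusted p = 0.0225), both with overlap. The interaction was called for 4 of the 8, but for 0 without Cre MCD 3 and 4, in either sex alone, without the low-mapping libraries, with no count limit or with the replicate block, and for 2 with at least 10 counts in every library. In the male livers alone, with Cre MCD 3 and 4 as the Cre livers, 0 of the 8 were called between genotypes on MCD.

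The 21 PPARA targets were mixed. In Cre mice 8 rose and 4 fell with MCD (median 0.22), and for liver-Flcn-/- mice the calls were 9 upward and 2 downward (median 0.46). Fgf21, a fasting hormone of the liver, rose in both genotypes (4.33 and 3.50 on the log2 scale) and Fabp1, the liver fatty acid binding protein, fell (−2.41 and −1.504). Hadhb, a subunit of the mitochondrial trifunctional protein of fatty acid oxidation, had 121, 111, 126, 121 and 133 CPM in Cre mice on MCD and 161 to 240.1 CPM in liver-Flcn-/- mice, with no overlap (0.58, SE 0.0971, edgeR adjusted p = 0.000321), and Hadha, its other subunit, was higher by 0.39 (edgeR adjusted p = 0.00082). Fgf21 was lower there (−1.59, edgeR adjusted p = 0.0129), with 28.2, 106, 17.1, 53.3 and 26.4 CPM in Cre livers against 9.16 to 20.7 CPM, and without Cre MCD 2, the highest, the value was −1.02 and not called (edgeR adjusted p = 0.0773). For the interaction 5 were called, all positive. Acadm and Pdk4 belong to both this list and the ERR list.

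Of 8 PPARG targets, 5 passed the count limit and all 5 rose with MCD in each genotype, with medians of 3.37 and 1.20 for Cre and liver-Flcn-/- mice. The 3 below the limit were Cidea, Mogat1 and Adipoq. Plin4, a lipid droplet coat protein, had 1.69 to 2.41 CPM in Cre mice on chow and 20.8, 10.8, 36.8, 19.7 and 25.2 CPM on MCD, against 86.4, 29.2, 60.6, 55.8 and 37.3 CPM on chow and 106 to 135 CPM on MCD in liver-Flcn-/- mice. The liver-Flcn-/- livers were above all Cre livers on each diet, by 4.85 on chow (SE 0.290, edgeR adjusted p = 3.83e-10) and 2.39 on MCD (SE 0.254, edgeR adjusted p = 1.93e-06), and the interaction was −2.46 (SE 0.366, edgeR adjusted p = 0.000706). Lpl, lipoprotein lipase, was also higher on chow (1.59, edgeR adjusted p = 0.000257) and rose less with MCD (interaction −2.16, edgeR adjusted p = 0.00116), and Cidec, a lipid droplet protein, had an interaction of −2.34 (edgeR adjusted p = 0.0423) that was called in 8 of 22 fits with a mouse left out. Cd36, a fatty acid transporter, was higher on chow (1.23, edgeR adjusted p = 0.00855), a call that held in 9 of 12 alternatives, with values from 0.66 to 2.17 and a highest adjusted p of 0.189. Fabp4, which fat cells and macrophages express, was lower in liver-Flcn-/- mice on MCD (−0.94, edgeR adjusted p = 0.00352). Cre MCD 3 stood apart for it, with 34.1 CPM against 12.7 to 16.1 CPM in the other Cre livers on MCD, and without it the difference was −0.61 (edgeR adjusted p = 0.00954). Adipocyte markers summed to at most 0.573 CPM outside Cre MCD 3, and Lep was at 0 in all libraries. Pparg itself was not called between genotypes on either diet (0.46 on chow, 0.17 on MCD). Marker genes also differed on chow. Of 7 genes of infiltrating macrophages 2 were called higher in liver-Flcn-/- mice and 0 lower (median 0.94). They summed to 24.2 to 32.4 CPM there, against 13.4 to 19.0 CPM in Cre livers. Of 8 hepatocyte genes 2 were called lower and 0 higher (median −0.35). Their part in the target genes' values on chow was not tested.

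Among 12 LXR targets, 2 upward and 5 downward calls with MCD were made in Cre mice, against 3 upward and 4 downward in liver-Flcn-/- mice. Scd1, the stearoyl-CoA desaturase, fell in both (−6.42 and −6.13 on the log2 scale), as did Fasn, the fatty acid synthase (−2.74 and −3.34). Between genotypes on MCD Lpcat3, which builds polyunsaturated phospholipids, was higher in liver-Flcn-/- mice with no overlap (97.1, 107, 101, 106 and 120.3 CPM against 138 to 168 CPM; 0.53, SE 0.0873, edgeR adjusted p = 0.000279), as was Smpdl3a (0.55, edgeR adjusted p = 0.00154). On chow Abcg1, a sterol exporter, was higher (0.56, edgeR adjusted p = 0.0277, called in 16 of 22 fits with a mouse left out and in 8 of 12 other alternatives, with values from 0.23 to 1.01). Of 17 CAR and PXR targets, 5 upward and 5 downward calls with MCD were made in Cre mice, against 4 upward and 5 downward in liver-Flcn-/- mice. In both genotypes Ces2a, a carboxylesterase (−3.42 and −2.85), and Cyp3a13 (−1.48 and −1.14) fell and Gadd45b rose (3.66 and 4.13). Between genotypes Cyp2a5, the coumarin hydroxylase, was lower in liver-Flcn-/- mice on chow (−1.59, SE 0.367, edgeR adjusted p = 0.00776) and on MCD (−1.45, SE 0.354, edgeR adjusted p = 0.00706). On chow the value was −0.71 and not called in the female livers (edgeR adjusted p = 0.205), nor without the 5 low-mapping libraries (edgeR adjusted p = 0.315), and −3.00 in the male livers, with a call. On MCD its level was 852, 1019, 1506, 1126 and 879 CPM in Cre livers, against 272 to 656 CPM in the 6 liver-Flcn-/- livers, with no overlap. Cyp2c55 (−1.35, edgeR adjusted p = 0.00576) and the exporter Abcc2 (−0.38, edgeR adjusted p = 0.0404) were lower on MCD too, and 0 targets of this list were called higher in liver-Flcn-/- mice on either diet. The call of Abcc2 held in 7 of 12 alternatives.

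**Figure D5:**
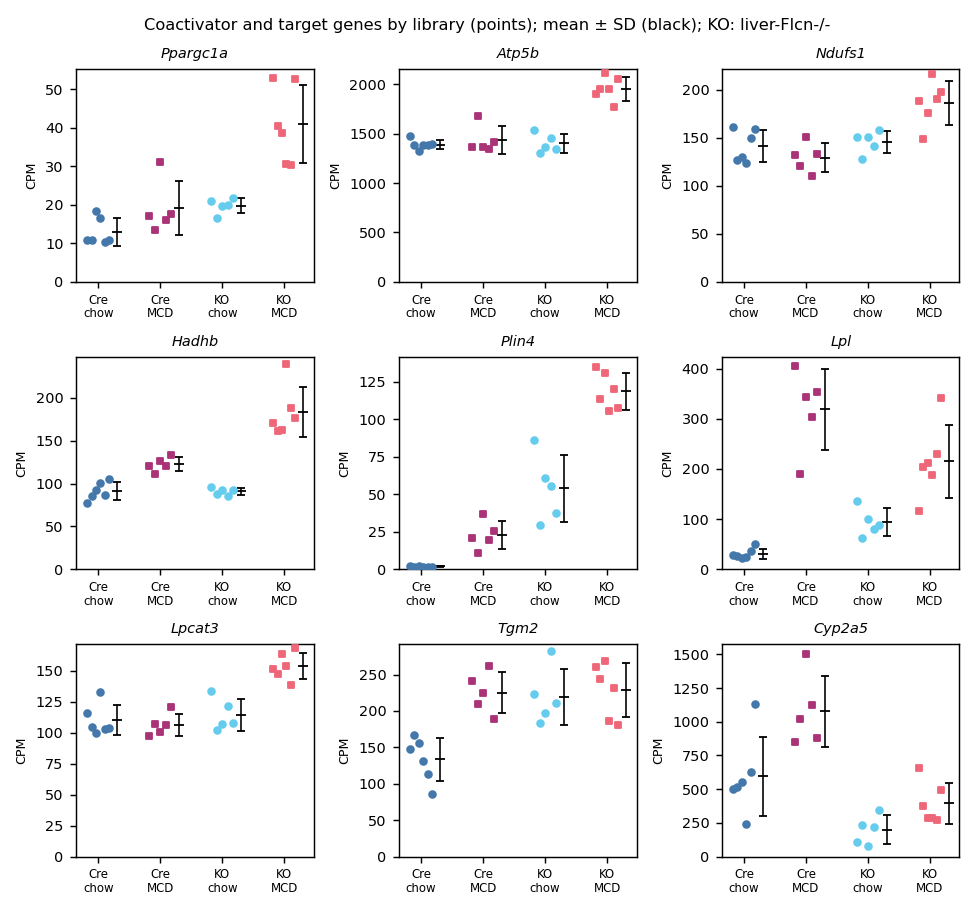
CPM in each of the 22 libraries for 9 coregulator and target genes (Ppargc1a, Atp5b, Ndufs1, Hadhb, Plin4, Lpl, Lpcat3, Tgm2, Cyp2a5), with the mean and SD of each group. On MCD the liver-Flcn-/- livers lie above all Cre livers for Atp5b, Hadhb, Plin4 and Lpcat3 and below them for Cyp2a5.

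The 10 glucocorticoid receptor targets went both ways with MCD, with 3 up and 3 down in Cre mice, and with 3 up and 4 down in liver-Flcn-/- mice. Fkbp5, a chaperone of the receptor, rose in both genotypes (1.17 and 1.75 on the log2 scale), and Tsc22d3 (GILZ) fell (−1.49 and −1.39). Pck1, the gluconeogenic carboxykinase, was lower in liver-Flcn-/- mice on chow (−0.89, edgeR adjusted p = 0.0434) and on MCD (−0.85, edgeR adjusted p = 0.0333), and Tat, tyrosine aminotransferase, on MCD (−0.90, edgeR adjusted p = 0.0358). With a mouse left out, the calls of Pck1 held in 10 of 22 fits on chow and in 16 of 22 on MCD, where its values over all alternatives ran from −1.415 to −0.32 and without Cre MCD 3 the value was −0.53 (edgeR adjusted p = 0.141), and that of Tat in 17 of 22. Of 4 thyroid hormone targets, 3 fell and 1 rose in Cre mice, and 2 fell and 1 rose in liver-Flcn-/- mice. Dio1, the deiodinase that activates thyroid hormone, fell (−2.43 and −2.39), and so did Thrsp, a lipogenic gene (−2.82 and −3.23). Cre MCD 3 stood apart for Thrsp, with 224 CPM against 11.9 to 36.5 CPM in the other Cre livers on MCD. Its change in Cre mice ran from −4.46 to −2.11 over all alternatives. Gpd2, a mitochondrial dehydrogenase, rose with MCD in both genotypes and was higher in liver-Flcn-/- mice on chow (0.42, edgeR adjusted p = 0.0419), a call that held in 15 of 22 fits with a mouse left out and in 7 of 12 other alternatives (0.25 to 0.66).

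Of 13 HNF4A targets, 11 fell and 2 rose in Cre mice (median −0.99), and 8 fell and 3 rose in liver-Flcn-/- mice (median −0.68). Otc, of the urea cycle, and Ttr, transthyretin, fell in both genotypes (−2.75 and −2.27, and −1.28 and −0.68), while Apoa4, an apolipoprotein, rose (4.09 and 2.69). On MCD Pklr, pyruvate kinase of the liver, was higher in liver-Flcn-/- mice with no overlap (1.52, SE 0.207, edgeR adjusted p = 3.18e-05), after a fall with MCD in Cre mice and a rise in liver-Flcn-/- mice, and Apoc2 was lower (−0.87, edgeR adjusted p = 0.0318, called in 17 of 22 fits with a mouse left out; −0.55 and edgeR adjusted p = 0.142 without Cre MCD 2, and −1.27 to −0.19 over all alternatives). On chow Apoa4 was higher and Ttr lower, each called in 9 of 12 alternatives. Of 7 retinoic acid targets 5 were tested, with 2 upward calls and 1 downward call with MCD in Cre mice and 1 upward and 2 downward in liver-Flcn-/- mice. Tgm2, a transglutaminase, had 85.7 to 167 CPM in Cre mice on chow and 223, 183, 197, 282 and 210.3 CPM in the 5 liver-Flcn-/- livers on chow. These ranges did not overlap (0.72, SE 0.152, edgeR adjusted p = 0.00413), and Tgm2 rose with MCD in Cre mice (0.755, edgeR adjusted p = 0.000249). Of 8 immediate early genes, read beside the NR4A receptors, 7 were tested, of which 3 rose and 1 fell with the diet in the Cre genotype and 2 rose with Flcn deleted, and Atf3 rose by 4.16 in Cre mice and by 2.18 in liver-Flcn-/- mice, with lower levels in liver-Flcn-/- mice on MCD (−1.58, edgeR adjusted p = 9.55e-05).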

How the data were processed

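The authors sequenced poly(A) RNA of 22 livers, trimmed reads with Trimmomatic, aligned them to GRCm38 with STAR and counted them per gene with HTSeq, and they deposited raw counts. Tool versions, annotation release and strand setting were not given in the sources used here. All 22 count columns matched a sample label, and 0 did not. Replicates are separate mice by their labels: 50 pairs within groups had Spearman correlations of 0.9089 to 0.9257, and 0 pairs were identical. Genes with a mean of at least 10 counts were fitted in 1 model of 4 groups with edgeR 4.0.16 (R 4.3.3, TMM factors, quasi-likelihood, two-sided, Benjamini-Hochberg over 14062 genes). Positions and exon lengths came from GENCODE M21, in which 93 genes had none. Members, gene lists and markers were chosen with earlier results of these data known, so list counts are not independent support. Values per library are given for members called between genotypes and the 6 called members with the largest change with MCD in each genotype, and from each list the 3 genes with the lowest adjusted p per comparison could be named; Nr1i3, Hnf4a, Cre MCD 3 and other members given with values were chosen after their values were seen. Alternatives were RLE factors, DESeq2 1.42.0, limma-voom (limma 3.58.1), other count limits, only the groups compared, the replicate number as a block, sex as a covariate, leaving out the 5 low-mapping libraries or each mouse in turn and, added after seeing the data, female livers, male livers, and no Cre MCD 3 and 4. A few tested genes of the lists enter the counts but are not reported here by name.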

Additional observations from a re-analysis of the deposited data

Results flagged for a closer look

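For the 9 receptors named by library and Flcn, 40 groups were examined for a library far from the rest of its group, and 4 were found; chance gives about 1 in 20 groups. Liver-Flcn-/- MCD 4 had 8.20 CPM of Nr6a1, the lowest of its group, with the next at 10.6. Liver-Flcn-/- Chow 4 had 36.9 CPM of Ppard, the highest of its group, with the next at 15.6. Liver-Flcn-/- MCD 2 had 14.9 CPM of Pparg, the lowest of its group, with the next at 20.5. Cre MCD 3, the liver with muscle transcripts, had 30.7 CPM of Thrb, the highest of its group, with the next at 18.2.

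Target genes whose response to MCD differed between genotypes by the test of the interaction (edgeR, log2 scale, adjusted p) were found in several lists. More positive responses in liver-Flcn-/- mice were those of Hadha (0.405, adjusted p = 0.0159), Hadhb (0.59, 0.0112) and Acadm (0.56, 0.025) of fatty acid oxidation, Atp5b (0.43, 0.0157) and Ndufs1 (0.48, 0.0386) of the respiratory chain and ATP synthase, Lpcat3 (0.48, 0.019) and Smpdl3a (0.57, 0.0265) among LXR targets, and Apoa2 (0.63, 0.0378), Ttr (0.60, 0.0163) and Pklr (1.495, 0.00333) among HNF4A targets. More negative responses were those of Plin4 (−2.46, 0.000706), Lpl (−2.16, 0.00116) and Cidec (−2.34, 0.0423) among PPARG targets, Tgm2 (−0.69, 0.0468) among retinoic acid targets, Cyp2c55 (−1.55, 0.0365), and the immediate early genes Atf3 (−1.98, 0.00307) and Ier3 (−1.31, 0.0417). Several of these calls were lost when a mouse was left out in turn: of 22 such fits Ier3 was called in 5, Cidec in 8, Ndufs1 in 9, Tgm2 in 10, Apoa2 in 13 and Cyp2c55 in 13, the last with values from −2.71 to −0.46 over all alternatives. Of 11 other alternatives Ndufs1 was called in 4, and Acadm, Apoa2, Atp5b and Tgm2 in 5 each, and of 10 Ier3 was called in 3. Plin4 and Lpl were called in all of theirs.

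Outside the comparisons, the Y-linked Ddx3y stood out in 5 of the livers read as female from Xist: 5.65 CPM in Cre Chow 2, 15.6 CPM in Cre MCD 1, 15.6 CPM in liver-Flcn-/- Chow 2, 5.35 CPM in liver-Flcn-/- Chow 4 and 6.11 CPM in liver-Flcn-/- MCD 3. The other 7 such livers had at most 1.36 CPM. Eif2s3y, also Y-linked, had 3.46, 8.61, 7.13, 3.92 and 3.89 CPM in the same 5 livers in that order, and at most 1.24 CPM in the other 7.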

How the results depend on the processing

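The 18 receptors called with MCD in Cre mice were 15 to 20, and the 10 in liver-Flcn-/- mice 9 to 12, when each mouse was left out in turn. Male livers alone gave 7 and 6, with fewer livers and with Cre MCD 3 and 4 as the Cre livers on MCD. Between genotypes on chow the count of 0 became 2 with DESeq2 (10.8% of all genes called) and 1 with sex as a covariate (9.13%). It became 1 in female livers (4.44%), 1 without Cre MCD 3 and 4 (9.81%), and 0 to 2 with single mice left out. On MCD the 2 calls became 4 without the 5 low-mapping libraries (19.3% of all genes called) and 1 in male livers (4.89%). They became 1 with the replicate block (13.3%) and 1 to 5 with single mice left out. For the interaction the count of 0 became 1 with DESeq2 (12.1% of all genes called) and 1 with sex as a covariate (9.86%). It became 2 in female livers (8.62%), 2 without Cre MCD 3 and 4 (6.59%), and 0 to 2 with single mice left out. The causes were not tested. Same-numbered mice deviated together little on average: over 31 pairs the mean correlation was 0.00613, with values from −0.551 to 0.47, and 7 were above 0.1. Between genotypes on MCD the 5 pairs had 0.0621 to 0.262. The mean over all pairs does not settle whether the numbers pair mice in a given comparison, and the main fit did not pair them. With the replicate block the 5 comparisons gave 17, 10, 0, 1 and 0 calls. Of all genes 55%, 41.9%, 6.18%, 13.3% and 3.93% were called in these fits. Each called value of a receptor was counted once per alternative. Of these counts 322 kept direction and call under the other alternatives, 37 lost the call and 1 reversed. The reversal was that of Esr1 with MCD in Cre mice, at 0.13 in male livers. With single mice left out 631 of the counts kept both direction and call and 29 lost the call. The call of Esr1 in Cre mice held in 8 of 12 alternatives and 14 of 22 fits without a mouse, that of Esrra on MCD in 8 of 12 and 15 of 22, and that of Nr6a1 in 11 of 12 and 22 of 22. Depth limits Vdr, Hnf4g, Nr4a2 and Nr4a3, which had at most 7, 19, 18 and 32 counts in a library.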
